A study of Mus musculus with 6 samples.

Results

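Muscle genes of mouse chromosome 1 were followed in embryonic retina. The set holds the 10 genes Chrng, Chrnd, Tnni1, Tnnt2, Myl1, Mybph, Myog, Des, Lmod1 and Speg, chosen by name from the deposited gene comparison and found as 10 of its 1140 complete rows, all on chromosome 1. RNA came from retinas at E15.5, an embryonic stage, of C57BL/6 mice. The control group was T2fx/+, which the submitters call wild type, with 3 libraries, and the other group was T2Isl1/+, in which Isl1 was knocked into Tbr2 (Eomes), also with 3 libraries. Both groups thus carried an altered Tbr2 allele beside a normal one. Each library was a pool of 8 retinas, and the labels do not say which litters a pool came from. Isl1 encodes a LIM-homeodomain transcription factor of retinal ganglion cells, and Tbr2 is a T-box factor found in some ganglion cells. The comparison asks which transcripts differed between the genotypes.

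Skeletal muscle contracts when acetylcholine from a motor axon opens a receptor built of alpha, beta, gamma and delta subunits in the fetus, and calcium then acts on the troponin complex of the thin filament so that myosin can pull on actin. Myogenin switches on many of these genes during muscle differentiation. The neural retina itself contains no striated muscle, while the eye muscles attach to the outside of the eyeball and smooth muscle lies in vessels, iris and ciliary body. The values are FPKM (fragments per kilobase of transcript and per 1000000 mapped fragments), 1 authors' value per gene and genotype, with the 3 libraries already combined. No spread between libraries can therefore be given for any value here, and the library depth is unknown. In RNA from whole tissue, fewer cells of a type and less RNA per cell cannot be told apart.

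The muscle genes other than Speg were low in these retinas, at no more than 1.62 FPKM. Of the 10, only Chrng passed the authors' test, falling 5.40-fold. Tnni1 and Myl1 had 6.42-fold and 2.43-fold lower values in T2Isl1 without passing it. Tnnt2 had nearly the same value in both genotypes, as did Speg, by far the most abundant, and Chrnd was listed at 0. Of the 10 genes, 4 were tested by the authors, 5 were measured above 0 but not tested, and Chrnd was at 0 in both genotypes. At a q-value (the authors' adjusted p-value) under 0.05, 1 of the 4 tested members was lower and 0 were higher, and 1.39% of all 646 tested rows were called lower in the authors' deposited table.

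**Figure D1:**
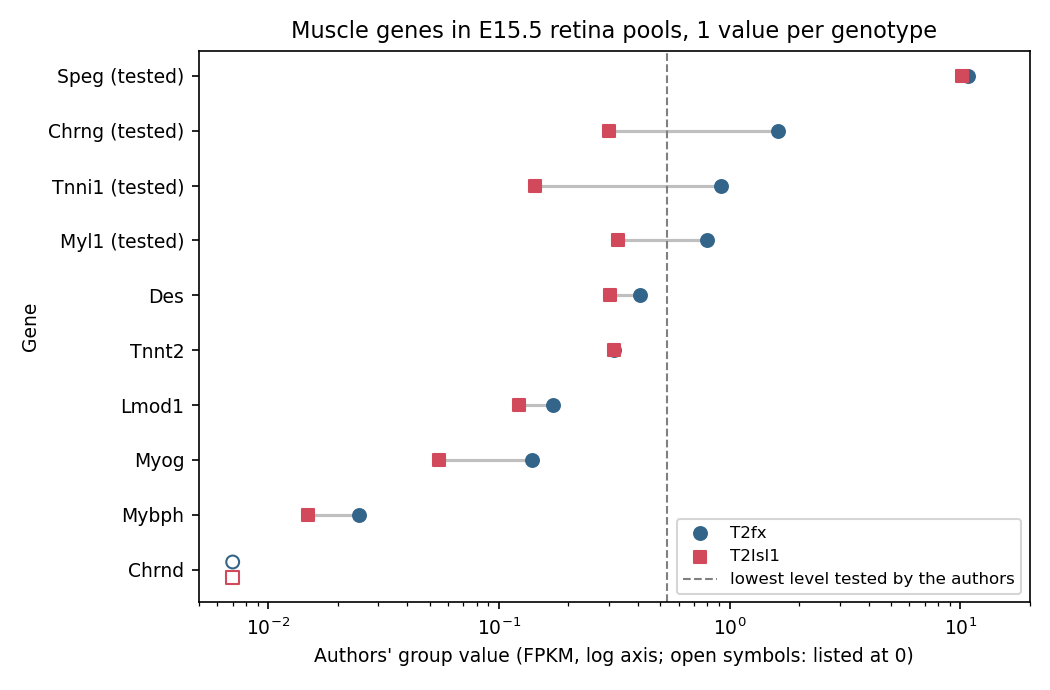
Authors' group value of the 10 muscle genes in FPKM on a log axis, circles for T2fx and squares for T2Isl1, 1 value per genotype with no error. The dashed line is the lowest level at which a row was tested, 0.537 FPKM; Chrng, Tnni1 and Myl1 cross it only with their T2fx values, Speg lies above it with both, and Chrnd is drawn at the left edge because it is listed at 0.

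Promoter sequence is shown for Chrng, Tnni1 and Myog, which had lower values in T2Isl1, and for Tnnt2, whose values were nearly the same. Each is the run of 250 bases before the RefSeq start site (GRCm38.p6, the assembly also called mm10), read on the gene's own strand, and capitals mark each match of the E-box CANNTG, the site class that myogenin and its relatives bind. The start site is the first base of the gene's row for Chrng, Myog and Tnnt2, and lies 33 bases from it for Tnni1. RefSeq lists 2 windows each for Tnni1 and Tnnt2, and the one nearest the row's start is shown. Of the shown bases, 19 of Tnni1, 15 of Myog and 1 of Chrng lie in annotated exons of the gene. Window letters follow, one gene to a line.
Chrng (chr1:87205561-87205810, plus strand): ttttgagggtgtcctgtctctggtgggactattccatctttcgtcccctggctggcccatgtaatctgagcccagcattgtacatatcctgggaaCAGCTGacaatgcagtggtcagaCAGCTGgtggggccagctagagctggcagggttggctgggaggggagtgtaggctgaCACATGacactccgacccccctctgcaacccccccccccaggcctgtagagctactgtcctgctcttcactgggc
Tnni1 (chr1:135799171-135799420, plus strand): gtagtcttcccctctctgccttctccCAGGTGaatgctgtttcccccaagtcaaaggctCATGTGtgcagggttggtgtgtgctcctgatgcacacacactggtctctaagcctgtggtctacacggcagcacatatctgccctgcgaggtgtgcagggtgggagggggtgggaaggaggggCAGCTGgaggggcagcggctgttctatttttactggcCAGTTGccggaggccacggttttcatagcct
Myog (chr1:134289754-134290003, plus strand): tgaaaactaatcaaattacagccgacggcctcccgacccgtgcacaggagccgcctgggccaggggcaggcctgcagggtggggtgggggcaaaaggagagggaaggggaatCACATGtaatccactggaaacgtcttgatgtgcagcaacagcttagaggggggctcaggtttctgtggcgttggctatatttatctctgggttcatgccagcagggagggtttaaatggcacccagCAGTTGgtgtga
Tnnt2 (chr1:135836084-135836333, plus strand): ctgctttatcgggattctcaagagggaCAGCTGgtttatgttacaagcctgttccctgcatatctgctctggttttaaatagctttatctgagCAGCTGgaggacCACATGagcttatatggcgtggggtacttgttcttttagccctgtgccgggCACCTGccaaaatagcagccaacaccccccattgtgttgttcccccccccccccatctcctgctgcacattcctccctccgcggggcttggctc

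Of the 10 genes, 9 had a RefSeq window, and Chrnd had none in the table used. All 9 held at least 1 CANNTG, as did 66.2% of the 32851 windows of the same length in the table. The variant CAGCTG, which reads the same on both strands and is contained in CANNTG, was in 7 of the 9 windows and in 13.0% of all windows. The Myl1 window, counted in these tallies, has 103 of its 250 bases in annotated exons of the gene. Chrng held a pair of these, beginning 155 and 132 bases before its start site, and Tnnt2 also held a pair, beginning 223 and 157 bases before. Tnni1 had 1, at 68 bases, and Myog and Speg had none. The M-CAT letters CATTCC, searched on both strands, were in 4 of the 9 windows (Tnnt2, Myl1, Mybph and Lmod1) and in 12.6% of all windows. An exact match to the MEF2 consensus YTAWWWWTAR was found in 1, that of Speg, against 2.92% of all windows. In these letters Y is C or T, W is A or T, and R is A or G. Near matches were not counted, such as ctatatttat in the Myog window, which differs in its last letter. The CArG box of serum response factor, CCWWWWWWGG, was found in 0 windows against 1.47%. Whether the number of matches bears on the values of these genes was not tested. These matches describe letters only, and binding was not measured.

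Of the receptor genes, Chrng was the one member called. Chrng encodes the gamma subunit, which marks the fetal form of the muscle acetylcholine receptor and is replaced by another subunit in adult muscle. The gene lies on chromosome 1 (87205811 to 87211835, plus strand, mm10), is protein-coding, and its group value was 1.62 FPKM in T2fx and 0.300 FPKM in T2Isl1. Chrng fell by 2.43 on the log2 scale, with p = 5e-05 and q = 0.0116 in the authors' deposited table. Its level stood at percentile 13.0 of the tested rows in T2fx and at 0.464 in T2Isl1. With the longest annotated coding transcript of 2780 bases, the T2fx level comes to about 4.50 fragments per 1000000 mapped and the T2Isl1 level to about 0.833. The annotated gene (87204657 to 87212694) reaches beyond the row on both sides. That transcript may thus be longer than the one measured, and these figures may be too high.

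Chrnd encodes the delta subunit of the same receptor and lies next to Chrng, with 5740 bases between their rows (Chrnd at 87190597 to 87200070, plus strand). It was listed at 0 in T2fx and at 0 in T2Isl1, and was not tested. That listing was shared by 216 of all 1140 rows. An exact 0 in a table without counts can also come from a failed estimate, so it is given as listed, and no fold can be formed. The subunits of a single receptor were thus not measured together: gamma was present at a low level in the control pools while delta was not listed above 0 in either genotype.

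Tested genes around this pair had slightly higher values in T2Isl1, without a call. Eif4e2, a cap-binding protein gene whose row starts 2078 bases beyond Chrng, had 44.4 FPKM in T2fx and 46.6 FPKM in T2Isl1. Ecel1, an endopeptidase gene, had 29.9 and 31.7 FPKM, and Efhd1, a calcium-binding protein gene, had 5.82 and 7.21 FPKM. Prss56, a serine protease gene, had 0.0604 and 0.0218 FPKM and was not tested.

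Troponin genes of the thin filament gave unlike values. Tnni1 encodes slow skeletal troponin I, the inhibitory subunit, which embryonic skeletal and cardiac muscle also express. Its row (135799388 to 135810989, plus strand) had 0.917 FPKM in T2fx and 0.143 FPKM in T2Isl1, a 6.42-fold difference and the largest ratio among the 9 measurable members. That difference did not pass (p = 0.106, q = 1.00 after rounding, in the authors' deposited table). Per 1000000 mapped fragments, its longest coding transcript of 1150 bases would collect about 1.05 in T2fx and 0.164 in T2Isl1. The annotated gene starts at 135779434, upstream of the row, so the length is uncertain here too. A larger ratio than that of Chrng thus came with a lower level, a shorter annotated transcript and a larger p.

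Tnnt2 encodes cardiac troponin T, the tropomyosin-binding subunit, which is also expressed in embryonic skeletal muscle. It lies on the same strand as Tnni1 with 25344 bases between the rows (135836334 to 135852268), and had 0.317 FPKM in T2fx and 0.314 FPKM in T2Isl1, a log2 ratio of -0.01. It was not tested by the authors. Lad1, the ladinin gene of basement membranes, sits between the troponin genes and had 0.167 and 0.0818 FPKM, also not tested. The ratios of the troponin genes thus ran from 6.42-fold to 1.01-fold within this stretch of chromosome.

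**Figure D2:**
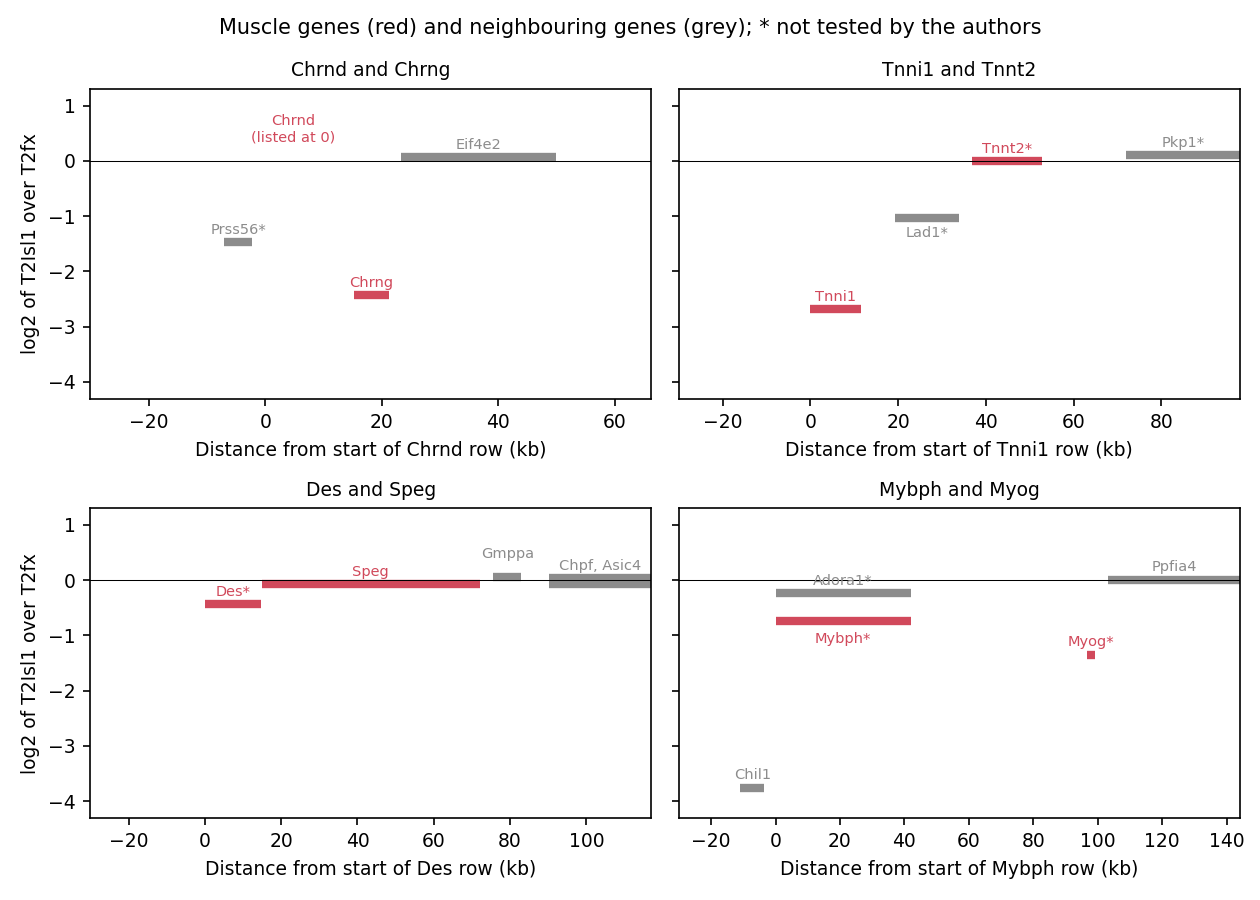
The log2 ratio of T2Isl1 over T2fx (vertical axis) for rows around 4 pairs of muscle genes, drawn at their distance in kb from the start of the first gene's row; red bars are muscle genes, grey bars neighbours, and an asterisk marks rows not tested. Chrng at -2.43 lies between Chrnd, listed at 0, and Eif4e2 at 0.07, while Tnni1 at -2.68 and Tnnt2 at -0.01 share a panel with Lad1 at -1.03.

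Thick filament genes were lower in T2Isl1 as values, without a call. Myl1 encodes the alkali light chains of fast skeletal myosin, made from alternative promoters and expressed early in muscle differentiation. Its row (66924296 to 66945056, minus strand) had 0.798 FPKM in T2fx and 0.328 FPKM in T2Isl1, a 2.43-fold difference. Myl1 had p = 0.0544 and q = 1.00 after rounding in the authors' deposited table. Mybph encodes myosin-binding protein H of fast muscle and was the lowest measurable member, at 0.0247 and 0.0148 FPKM, not tested. Its row (134193448 to 134235457, plus strand) spans the Adora1 gene on the opposite strand as well, which had 0.265 and 0.225 FPKM in a row of the same span. The labels give no strand setting for the counting, so reads of Mybph and Adora1 may not be separable, and the Mybph ratio of 1.66-fold is uncertain.

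Myog, the gene of the transcription factor myogenin, had 0.139 FPKM in T2fx and 0.0548 FPKM in T2Isl1 (134290004 to 134292548, plus strand). That is a 2.54-fold difference at a level under the range the authors tested. Ppfia4, a synaptic scaffold gene that lies 4234 bases further on, had 2.60 and 2.62 FPKM. On the other side of Mybph lies Chil1, a chitinase-like gene, at 0.915 and 0.0679 FPKM (p = 0.00415, q = 0.511 in the authors' deposited table). So Chil1, Mybph and Myog, each under 1 FPKM, had lower values in T2Isl1, and Ppfia4 did not. Chit1, another chitinase family gene in this stretch, had 0.0110 and 0.0241 FPKM, the higher value in T2Isl1.

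Des and Lmod1 had ratios under 1.5-fold. Des encodes desmin, the intermediate filament of all muscle types (75360292 to 75375015, plus strand), and had 0.408 FPKM in T2fx and 0.303 FPKM in T2Isl1, a 1.35-fold difference. Its row also spans the antisense gene Gm15179, listed at 0 in both genotypes. Lmod1 encodes leiomodin 1, an actin nucleator of smooth muscle (135324813 to 135368065, plus strand), and had 0.172 and 0.122 FPKM, a 1.41-fold difference. Neither gene was tested by the authors.

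Speg, a large kinase gene of striated muscle whose locus also makes shorter products in smooth muscle and brain, had the highest level of the set. It begins 281 bases after the Des row on the same strand (75375297 to 75432310) and had 10.8 FPKM in T2fx and 10.2 FPKM in T2Isl1, a 1.05-fold difference. Speg had p = 0.691 and q = 1.00 after rounding in the authors' deposited table. It stood at percentile 50.5 of the tested rows in T2fx, so it was a gene of median level here, unlike the other members. Across all members, 20 other rows within 60 kb were tested. Of these, 0 were called and 1, Chil1, had an unadjusted p under 0.05 in the authors' deposited table. Over all tested rows the shares were 1.55% and 3.72%, so these counts say little about the neighbours. For Speg itself, RefSeq lists 4 promoter windows, and which product gave the value cannot be told from this row.

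Apart from Speg, the members added up to 4.39 FPKM in T2fx and 1.58 FPKM in T2Isl1, a 2.78-fold difference. Chrng made up 46.9% of this difference, Tnni1 27.5%, Myl1 16.7% and Myog 3.01%. Des, Lmod1, Mybph and Tnnt2 together went from 0.920 to 0.754 FPKM. The remaining sum without Chrng was 2.77 and 1.28 FPKM, 2.17-fold, so the lower total did not rest on Chrng alone. With Speg included the sums were 15.1 and 11.8 FPKM, 1.29-fold, because Speg held most of the level in both genotypes. In T2fx the order of levels was Speg, Chrng, Tnni1, Myl1, Des, Tnnt2, Lmod1, Myog, Mybph and Chrnd. In T2Isl1 it was Speg, Myl1, Tnnt2, Des, Chrng, Tnni1, Lmod1, Myog, Mybph and Chrnd, and the values from Myl1 to Chrng lay within 0.300 to 0.328 FPKM, so their order there carries no weight.

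The 9 measurable members all had the lower value in T2Isl1, with a median log2 ratio of -0.73. All 646 tested rows had a median of 0.01, and 45.4% of them were below control. Of the 854 rows above 0 in both genotypes, which like the members include untested ones, 48.5% were below control. Among the 199 rows whose higher genotype had 0.1 to 2 FPKM, 59.8% were below control, the median was -0.06 and the middle of the distribution ran from -0.42 to 0.15. In that band 4 of 7 members (Chrng, Tnni1, Myl1 and Myog) were at least 2-fold lower in T2Isl1, beside 10.1% of all rows there, and 0 were at least 2-fold higher, beside 3.02%. The members were picked with results of these data known, so these counts describe them and do not test them. Chrng, Tnni1 and Myl1 also reached the authors' test only through T2fx: the lowest tested row had 0.537 FPKM in its higher genotype, above the T2Isl1 values of all 3. At an unadjusted p-value under 0.05, 1 tested member (Chrng) was lower, beside 2.63% of all tested rows in the authors' deposited table.

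**Figure D3:**
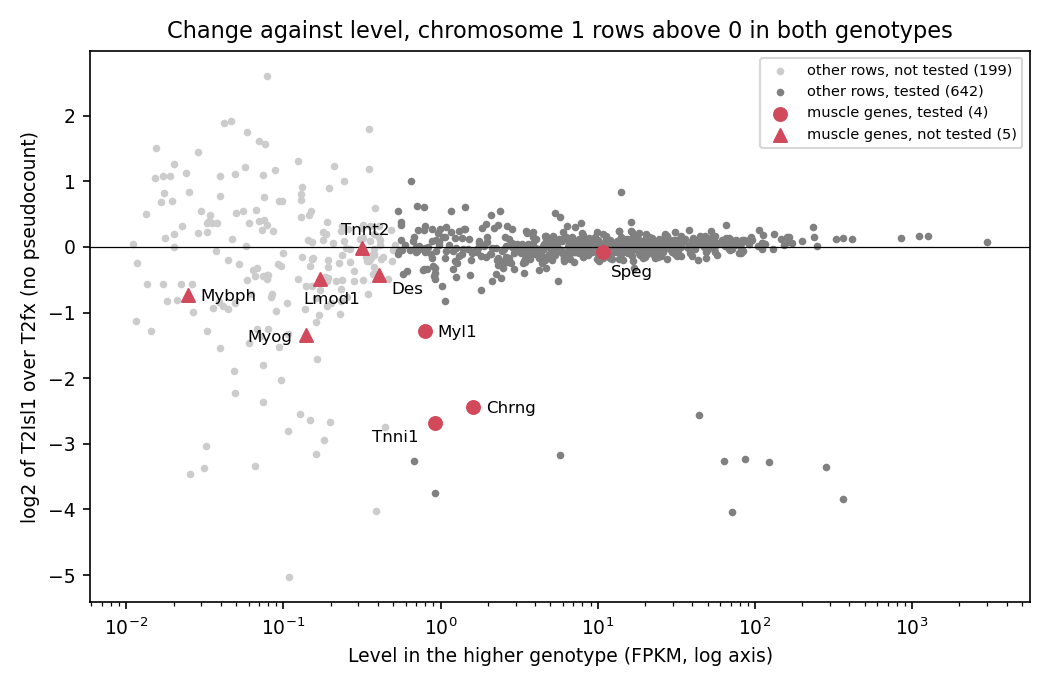
Each point is a chromosome 1 row with values above 0 in both genotypes and at least 0.01 FPKM in the higher one: level in the higher genotype in FPKM on a log axis against the log2 ratio of T2Isl1 over T2fx. Red symbols are the 9 measurable muscle genes; Chrng and Tnni1 lie below -2, Speg and Tnnt2 lie near 0, and grey points show that ratios spread more widely at low level.

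A further list of 26 genes with roles in muscle had 20 rows in the table, of which 15 had the lower and 4 the higher value in T2Isl1. Of these rows 13 were tested and 0 were called, beside 1.55% of all tested rows called in either direction in the authors' deposited table. Their smallest p there was 0.171, and 0 of the 13 had an unadjusted p under 0.05, beside 3.72% of all tested rows. At such shares 0 of 13 says little about this list. Log2 ratios of the 13 ran from -0.45 to 0.24, with a median of -0.10. Mstn, which encodes myostatin, the secreted brake on muscle growth, had 14.0 FPKM in T2fx and 13.3 FPKM in T2Isl1, far above Chrng and with nearly equal values. Obsl1, a cytoskeletal adaptor related to obscurin, had 18.7 FPKM in both genotypes. Csrp1, a LIM protein gene of smooth muscle, had 39.1 and 41.1 FPKM, and Hes6, a bHLH gene active in myogenesis and in neurogenesis, had 380 and 414 FPKM.

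The other tested genes of that list had lower levels. Dst, a cytoskeletal linker gene, had 10.7 and 9.59 FPKM, and the row joining Ankrd23, a titin-associated ankyrin gene, with Ankrd39 had 5.32 and 4.91 FPKM. Ppp1r12b, a myosin phosphatase subunit gene, had 4.21 and 3.76 FPKM, and the row joining the calcium pump gene Atp2b4 with Lax1 had 3.73 and 3.48 FPKM. Tns1, a focal adhesion gene, had 2.95 and 2.76 FPKM, and Eya1, a coactivator of muscle and sensory precursors, had 2.63 and 2.23 FPKM. None of these 6 rows passed the test. The tubulin gene Tuba4a had 1.81 and 1.65 FPKM and the LIM gene Fhl2 had 1.11 and 1.32 FPKM. Cavin2, a caveolar coat gene listed under its older symbol Sdpr, had 0.913 and 0.671 FPKM, a level like that of Tnni1 in T2fx, and 1.36-fold between genotypes.

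The 7 untested rows of the list reached at most 0.444 FPKM, in Col6a3, which had 0.0664 FPKM in T2Isl1, a 6.69-fold difference. Myoc, the myocilin gene, went the other way, with 0.00741 and 0.0153 FPKM. Among them, genes largely restricted to skeletal muscle, picked after their values were seen, were near 0. The calcium channel gene Cacna1s, which couples excitation to contraction, had 0.0182 and 0.0103 FPKM. Igfn1, a sarcomere protein gene, had 0.0357 and 0.0187 FPKM, and Prkag3, a skeletal muscle AMPK subunit gene, had 0.0116 and 0.00529 FPKM. Cacna1s, Igfn1 and Prkag3 had the lower value in T2Isl1, none was tested, and their sum was 0.0655 FPKM in T2fx and 0.0342 FPKM in T2Isl1. Pax3, a gene of muscle precursors, was listed at 0 in both genotypes. Asb18 was at 0.00920 FPKM in T2fx and listed at 0 in T2Isl1. The 6 list genes without a row, Casq1 among them, were not analysed here.

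Marker genes of other tissues moved in the same comparison. The 8 lens genes had a summed level of 1038 FPKM in T2fx and 93.6 FPKM in T2Isl1; 7 of the 8 were lower and called, and Lgsn was listed at 0 in both. Of 7 connective tissue genes, all 7 had the lower value in T2Isl1, with sums of 25.5 and 16.1 FPKM and none at 0; Col3a1 was the 1 called, at 5.76 and 0.637 FPKM (q = 0.0116 in the authors' deposited table). Of all tested rows, 1.55% were called and 3.72% had an unadjusted p under 0.05. In the connective tissue list, 3 of the 5 tested genes had an unadjusted p under 0.05 in the authors' deposited table. Besides Col3a1 these were the mesenchymal factor Twist2, 0.677 and 0.0703 FPKM with p = 0.00555, and the collagen gene Col5a2, 5.56 and 3.88 FPKM with p = 0.0003, in the authors' deposited table. The collagen gene Col6a3, not tested, had 0.444 and 0.0664 FPKM. Smaller differences were found for Fmod, not tested, at 0.346 and 0.210 FPKM, and Prelp, at 0.818 and 0.648 FPKM. Fn1, the fibronectin gene and the highest of the list, had 11.9 and 10.6 FPKM. Their part in the values of Chrng, Tnni1, Myl1 and Myog was not tested.

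Smooth muscle, endothelial and retinal markers stayed near equal in sum, but each sum was held mostly by a single gene. Smooth muscle and pericyte genes, among them Lmod1 and Des, summed to 50.2 and 51.5 FPKM, and 4 of the 5 had the lower value in T2Isl1. The pericyte gene Rgs5 had 7.55 and 7.18 FPKM. Csrp1, at 39.1 and 41.1 FPKM, held most of the sum and was the only gene of the list with the higher value in T2Isl1. Endothelial genes summed to 6.67 and 6.86 FPKM, almost all from Cd34, with Sele listed at 0 in both genotypes and Selp at 0 in T2Isl1. The 8 retinal genes summed to 581 and 602 FPKM, and this rise came from Hes6, since the other 7 had the lower value in T2Isl1. Of these 8, 0 were called and 1 had an unadjusted p under 0.05 in the authors' deposited table, beside 1.55% and 3.72% of all tested rows. At such shares these counts say little about the retinal list. Markers of cranial mesenchyme and eye muscle precursors summed to 3.30 and 2.30 FPKM, with Pax3 at 0 in both; Eya1 held most of the sum, and the remaining gene, Twist2, had 0.677 and 0.0703 FPKM. Within the skeletal muscle list of 10 genes, 9 had a row; their sums of 17.6 and 14.1 FPKM came mostly from Mstn, and Chrnd was at 0.

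**Figure D4:**
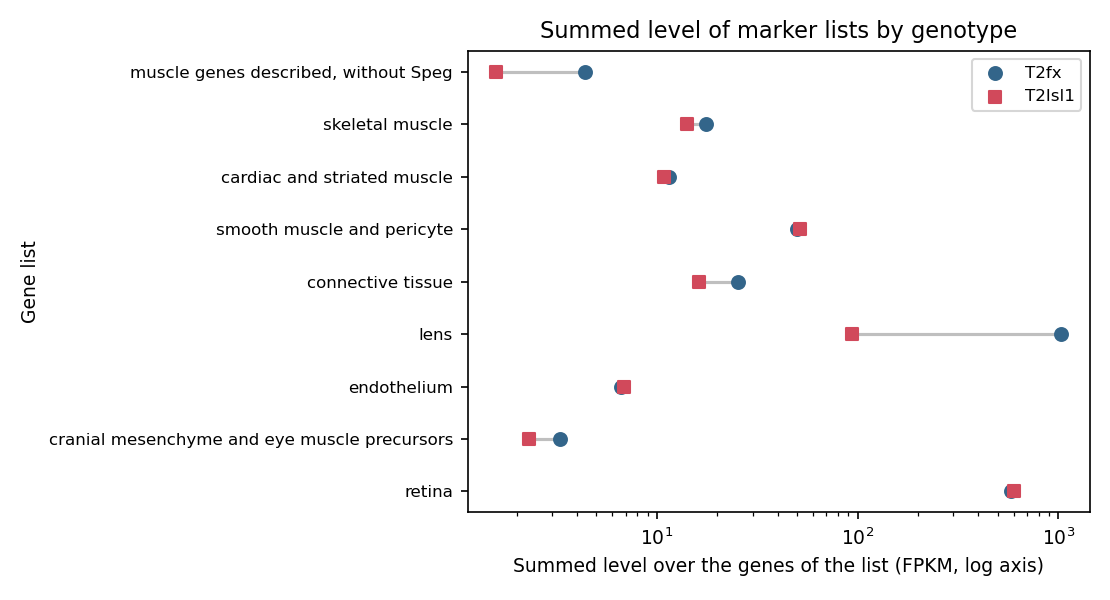
Summed authors' group values of each gene list in FPKM on a log axis, circles for T2fx and squares for T2Isl1, 1 sum per genotype with no error. The muscle genes without Speg went from 4.39 to 1.58 FPKM and lens genes from 1038 to 93.6 FPKM. Retina, endothelium and smooth muscle sums stayed close together, each held mostly by a single gene. Some genes are shared between lists.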

How the data were processed

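Total RNA from pooled E15.5 retinas was sequenced in 3 T2fx and 3 T2Isl1 libraries, grouped by their titles. Tools and build, per the submitters' processing notes, were mm10, Cufflinks 2.1.1, TopHat2 2.1.1 and CASAVA, with no order or annotation given. The authors deposited 1 FPKM value per gene and group, a unit inferred from the named tool and the column layout, since the header has only the word value. The authors' log2 fold change, test score, p-value and q-value are taken as per the file headers. The score was not used. Rows were those of chromosome 1 (1140 complete, 1 incomplete and left out), and 646 had been tested by the authors.

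Log2 ratios, folds, sums, medians and percentiles were computed from the FPKM values with pandas 2.3.3 and numpy 2.4.6 (Python 3.11.15), without a pseudocount, and matched the authors' log2 values to within 1.08e-05. Genes were not tested anew, since the analysed table has 1 value per genotype. The Benjamini-Hochberg step was tested on simulated data. Starts were raised by 1 to count from 1. Strand, overlaps and transcript lengths came from GENCODE M21 (mm10), and older symbols from RefSeq. Fragments per 1000000 are FPKM times the longest coding transcript in kb. Promoter windows are RefSeq's (GRCm38.p6), the one nearest the row's start. Neighbours are rows within 60 kb. All members were named; from the other muscle list each tested gene was named, and from marker lists the called or the highest gene. Other genes in the text (neighbours, the genes most restricted to skeletal muscle, and those in the closing section) were named after their values were seen. So were the remaining genes named from the marker lists, among them Twist2, Col5a2, Col6a3, Fmod, Prelp and Rgs5. The same holds for the untested genes named from the other muscle list. The members and lists were chosen with earlier results of these data known. Depth is unknown, so no interval is given.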

Additional observations from a re-analysis of the deposited data

How the results depend on the processing

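Chrng was the 1 member called at a q-value under 0.05, and also at an unadjusted p-value under 0.05, with p-values adjusted (Benjamini-Hochberg) across just these 646 rows, and with a floor of 1 FPKM. At a q threshold of 0.01 the count was 0, because the authors' deposited table gives Chrng q = 0.0116. The median log2 ratio of the 9 measurable members, -0.73, was -1.25 with at least 1 FPKM in the higher genotype, where only Chrng and Speg remain, -0.11 with a pseudocount of 1 FPKM, and -0.89 without Mybph, a setting chosen after seeing the data. Centred on the median of tested rows it was -0.75. The ratio of summed levels, 1.29, was 2.90 without Lmod1 and Speg and 2.78 without Speg, the highest member. Of 27 settings of single members, with pseudocounts of 1 and 0.1 FPKM and with centring, 0 changed sign, which a pseudocount cannot do, and 13 moved by more than 0.1 on the log2 scale, a limit set because no spread between libraries exists. With a pseudocount of 1 FPKM Chrng went to -1.01, Tnni1 to -0.75 and Myl1 to -0.44. No paired analysis was possible because replicates had been merged into 1 value per genotype. No library could be left out for the same reason.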

Other observations

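Some other low-level rows shared the direction of Chrng, Tnni1, Myl1 and Myog. In the band of 0.1 to 2 FPKM, 16 of the 192 rows that are not members (8.33%) were at least 2-fold lower in T2Isl1. Of the same rows, 6 (3.1%) were at least 2-fold higher. The genes named here were picked from the 16 after their values were seen. Mettl21c, a lysine methyltransferase gene known from muscle, had 0.147 FPKM in T2fx and 0.0237 FPKM in T2Isl1. Lamb3, which encodes a laminin chain of epithelial basement membranes, had 0.108 and 0.00329 FPKM. Wnt6, a Wnt ligand gene, had 0.390 and 0.0241 FPKM. The authors tested none of these 3 rows, and no replicate error can be given for them.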
